A study of Mus musculus with 38 samples.

Results

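The genes described here changed in the same direction between 48 h and 60 h of retinoic acid (RA) exposure in both bulk RNA-seq and single-cell SCRB-seq of differentiating mouse embryonic stem cells (mESCs). Members were the genes whose share of all unique molecular identifiers (UMIs, short random sequences that let copies of the same captured RNA molecule be counted as 1) differed by at least 1.5-fold in the same direction in both assays, provided that the gene reached 50 UMIs at 48 h or at 60 h in bulk and also in SCRB-seq. Of 23481 genes listed in the bulk table, 3717 could be compared in this way and 118 were members. The share rose in 55 of them, which is 1.48% of the genes compared, and fell in 63, which is 1.69%. At any size of change, 2076 of the 3717 genes (55.9%) had the same sign in both assays, 1133 upwards and 943 downwards. Taken singly, bulk had 3.12% of genes at least 1.5-fold higher and 6.19% lower at 60 h, and SCRB-seq had 16.6% higher and 9.47% lower. The ratios between 48 h and 60 h chose the members, so they are given as a description and without a test.

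E14 mESCs, a mouse line kept in the pluripotent state in 2i medium with LIF, were moved to N2B27 basal medium with 0.25 µM RA and collected between 0 h and 96 h. Each bulk time point after 0 h was 1 library of the whole culture, and each SCRB-seq time point was 1 plate of 384 wells into which single cells had been sorted by their DNA stain. There is thus no replicate at 48 h or at 60 h, and the intervals given below are exact 95% intervals of counting error only. Medium was exchanged at 48 h for cells that were kept longer, so that 12 h of additional RA and 12 h in fresh medium cannot be told apart. The other groups used here were mESCs at 0 h (2 bulk libraries), cells of the same 96 h RA treatment sorted as ectoderm-like (CD24-positive, PDGFRA-negative) or XEN-like (PDGFRA-positive, CD24-negative) with 2 bulk libraries each, quartiles of the CD24 signal in PDGFRA-negative cells at 48 h, and terciles of CD24 in PDGFRA-negative cells and the PDGFRA-positive, CD24-negative cells at 72 h with 1 library each.

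RA enters cells, is carried by cellular RA-binding proteins, activates nuclear RA receptors on direct repeats of a short hexamer and is degraded by enzymes of the Cyp26 family. In mESCs released from 2i it drives exit from pluripotency towards neural ectoderm and towards extraembryonic endoderm (XEN), the latter a tissue that secretes a basement membrane of type IV collagen, laminins and Sparc. Pluripotent cells are marked by transcription factors such as Sox2 and Zfp42 (Rex1) and by the chromatin-associated pair Dppa2 and Dppa4.

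The 48 h and 60 h bulk libraries held 2459424 and 1665335 UMIs, and 277 and 273 wells with more than 2000 UMIs gave 1520163 and 1628283 UMIs in SCRB-seq, with medians of 3780 and 4198 per cell. All 384 well names recur on both plates and 216 of the kept wells share a name, but no kept well held the same counts on both. The deeper 48 h bulk library makes the minimum of 50 UMIs easier to reach for genes that were higher at 48 h, and with the minimum set at equal depth, an alternative chosen after the data were seen, 52 genes rose and 45 fell. TMM factors in place of library totals gave 48 and 85, so that the rising share of members moved from 46.6% to 36.1%. Scaling to Gapdh, itself at 0.786 of its 48 h share at 60 h in bulk and 0.962 in SCRB-seq, gave 203 and 27 (88.3% rising), with all 55 rising members kept and 27 of the falling ones. As a measure of how far libraries of 1 state can differ, the 2 bulk libraries of mESCs at 0 h were at least 1.5-fold apart at 678 of 3110 genes (21.8%), against 346 of 3717 (9.31%) for bulk at 60 h and 48 h. Among members with at least 50 UMIs in the larger 0 h library, 29 of 69 were that far apart between the 2 mESC libraries.

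**Figure D1:**
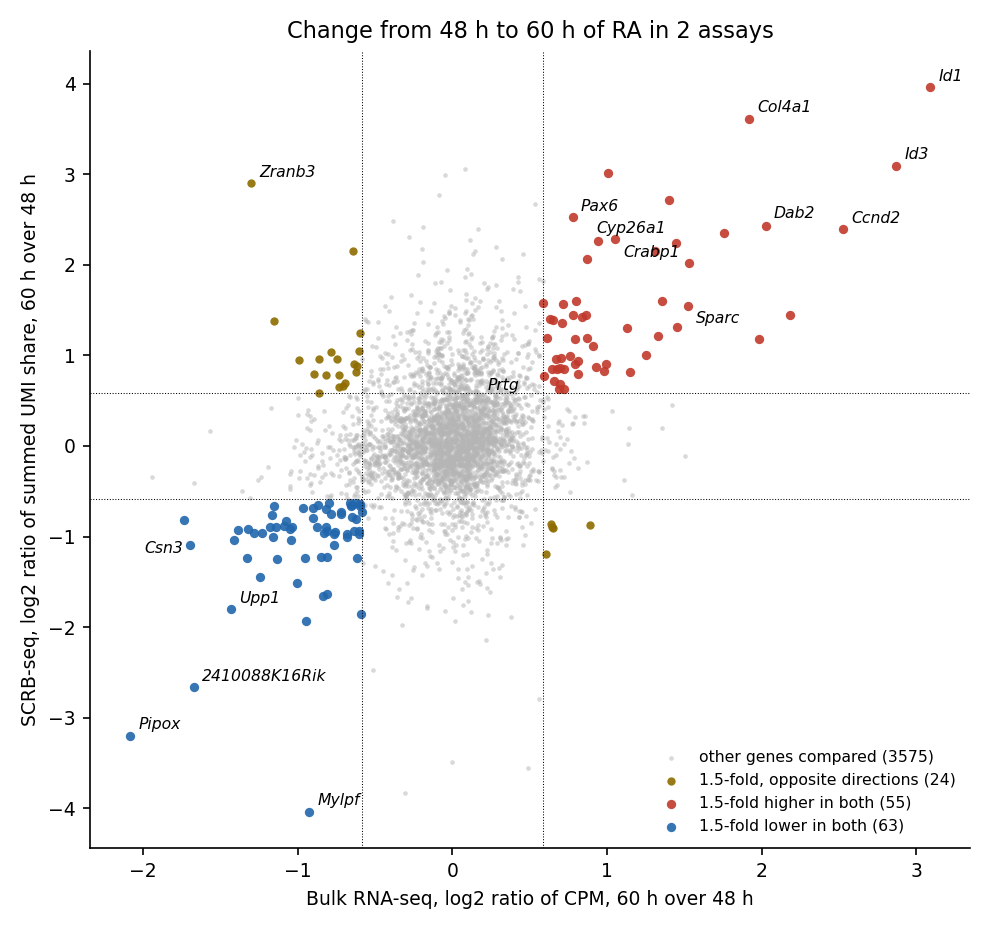
Log2 ratios of 60 h over 48 h for the 3717 genes compared, in bulk (horizontal axis, ratio of CPM) and in SCRB-seq (vertical axis, ratio of UMI shares summed over cells); each point is a gene and dotted lines mark 1.5-fold. The 55 rising members (red) reach furthest at Id1, Id3 and Col4a1, the 63 falling members (blue) at Pipox in bulk and at Mylpf in SCRB-seq, and 24 genes (brown) passed 1.5-fold in opposite directions.

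The median rising member was 1.83-fold higher in bulk and 2.48-fold higher in SCRB-seq, and 41 of the 55 had the larger ratio in SCRB-seq. The median falling member was 1.83-fold lower in bulk and 1.92-fold lower in SCRB-seq. A change of 2-fold in both assays was reached by 20 rising and 11 falling members. Just inside the limit stood Tmem97 (1.51-fold in bulk and 1.71-fold in SCRB-seq) and Dctn4 (1.503 and 2.99), and just outside it B3gnt5 (1.48 and 3.60). Among falling genes Mastl (1.501-fold and 1.66-fold lower) was just inside and Phc1 (2.47 and 1.49) just outside.

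Ranked by the smaller of their ratios in both assays, the largest rises were those of Id1 and Id3, inhibitors of basic helix-loop-helix transcription factors and known targets of BMP signalling. Id1 (chr2:152736251-152737410, GRCm38) had 12 UMIs at 48 h and 69 at 60 h in bulk, and 7 and 117 in SCRB-seq. Its share was thus 8.49-fold higher in bulk (95% interval 4.56 to 17.2) and 15.6-fold higher in SCRB-seq (7.34 to 39.7). Id3 (chr4:136143822-136145392) went from 116 to 574 UMIs in bulk (7.31-fold, 5.98 to 9.0) and from 27 to 247 in SCRB-seq (8.54-fold, 5.73 to 13.2). Id2 went from 119 to 318 and from 49 to 119 UMIs, or 3.95-fold and 2.27-fold. All 3 were lower at 36 h than at 48 h: in bulk, Id3 had 50.8 and 13.1 CPM (UMIs scaled to 1000000 in a library) in the 0 h libraries and 6.66 CPM at 36 h. The 48 h, 60 h and 72 h libraries then held 47.2, 344.7 and 368 CPM. A list of BMP pathway and Id genes added after these values were seen had 4 of its 15 genes above the minimum, and Id1, Id2 and Id3 were the 3 that rose. The remaining one, the receptor gene Bmpr1a, had a ratio of 1.07 in bulk and 0.79 in SCRB-seq. The ligand Bmp4, below the minimum, had 14 and 11 UMIs in bulk and 3 and 29 in SCRB-seq.

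Ccnd2, which encodes cyclin D2, a G1 cyclin, and lies at chr6:127125162-127152188, had 72 and 281 UMIs in bulk (5.76-fold, 4.43 to 7.58) and 58 and 327 in SCRB-seq (5.26-fold, 3.97 to 7.09). The increase continued in bulk to 238 CPM at 72 h from 3.63 CPM at 36 h. Of the 5 cyclin, CDK inhibitor and Myc genes above the minimum Ccnd2 was the 1 member, and none of the 24 S phase or 25 G2/M genes above the minimum was a member in either direction. Their medians in bulk were 0.07 and 0.02 on the log2 scale, beside 0.00 over all genes compared.

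Genes of the basement membrane and of the XEN lineage were among the rising members. Of 11 XEN markers, 7 were above the minimum, all 7 were higher at 60 h in both assays and 6 were members (Dab2, Col4a1, Col4a2, Sparc, Lama1 and Lamb1), with median log2 ratios of 1.52 in bulk and 2.15 in SCRB-seq against 0.00 and 0.05 over all genes compared. Col4a1, a chain of type IV collagen, had 99 and 253 UMIs in bulk (3.77-fold, 2.98 to 4.81) and 33 and 433 in SCRB-seq (12.2-fold, 8.59 to 18.0). Col4a2, its partner chain, had 38 and 87 in bulk (3.38-fold) and 37 and 203 in SCRB-seq (5.12-fold). Sparc (chr11:55394159-55420080), a secreted collagen-binding protein, had 530 and 1031 in bulk (2.87-fold, 2.58 to 3.20) and 224 and 699 in SCRB-seq (2.91-fold, 2.50 to 3.40).

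Lama1, a laminin alpha chain, went from 100 to 168 UMIs and from 64 to 305 (2.48-fold and 4.45-fold), and Lamb1, a laminin beta chain, from 211 to 227 and from 149 to 311 (1.59-fold and 1.95-fold). Lamc1, the gamma chain, missed the limit at 1.42-fold and 1.47-fold. Dab2, an endocytic adaptor, went from 90 to 248 and from 33 to 190 UMIs (4.07-fold and 5.38-fold). The transcription factors and the receptor on the list were too low to be compared by the rule. Gata4 had 17 and 12 UMIs in bulk but 0 and 24 in SCRB-seq, Gata6 had 30 and 32 and then 61 and 100, Sox17 had 25 and 45 and then 8 and 62, and Pdgfra had 20 and 19 and then 17 and 73. Of the 9 basement membrane and matrix genes above the minimum 5 were members, while Fn1 (0.76 and 0.97) and Nid2 (0.77 and 1.06) were not higher in bulk. Summed over the XEN list, bulk shares were 516.8 CPM at 48 h and 1338 CPM at 60 h. In a whole culture, more cells of a type and more RNA per cell cannot be told apart.

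The other rising genes with the largest changes were Fabp3, a fatty acid-binding protein gene (94 and 184 UMIs in bulk, 26 and 113 in SCRB-seq, 2.89-fold and 4.06-fold), Srgn, which encodes the core protein of the proteoglycan serglycin (67 and 206, 22 and 64, 4.54-fold and 2.72-fold), Lrpap1, a chaperone of LDL receptor family proteins (296 and 513, 92 and 298, 2.56-fold and 3.02-fold), and Gas1, a membrane-anchored co-receptor for Hedgehog ligands (47 and 84, 21 and 148, 2.64-fold and 6.58-fold). Fabp3 differed from the rest in its course. Its bulk level fell from 300.1 and 1255 CPM in the 0 h libraries to 38.2 CPM at 48 h. The bulk level then increased to 110.5 at 60 h and 963 at 96 h. In SCRB-seq its share was lower at 72 h than at 60 h and higher again at 96 h. The assays also went apart between 36 h and 72 h, with ratios of 72 h over 36 h of 3.96 in bulk (3.12 to 5.08) and 0.70 in SCRB-seq (0.49 to 0.98).

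The retinoid genes among the members were Cyp26a1, which encodes an RA-degrading enzyme, and Crabp1, which encodes an RA-binding protein. Cyp26a1 had 141 and 260 UMIs in bulk (2.72-fold, 2.21 to 3.37) and 107 and 540 in SCRB-seq (4.71-fold, 3.82 to 5.85). In bulk it had 0.87 CPM in both 0 h libraries, 40.8 CPM after 24 h, 64.1 CPM after 36 h and 57.3 CPM after 48 h. The 60 h and 72 h libraries held 156 and 109.5 CPM. SCRB-seq had 0.375 UMIs per 10000 after 36 h, 0.704 after 48 h and 3.32 after 60 h, so that it was higher at 48 h than at 36 h where bulk was not. Crabp1 had 270 and 379 UMIs in bulk (2.07-fold, 1.77 to 2.43) and 38 and 199 in SCRB-seq (4.89-fold, 3.44 to 7.11), and its bulk level between 0 h and 36 h had stayed between 13.9 and 38.3 CPM. Of the 6 retinoid genes above the minimum out of 17 listed, these 2 were members. Crabp2 was higher at 1.18-fold and 1.53-fold, Dhrs3 at 1.05-fold and 1.44-fold, and Stra6, an importer of retinol, was lower at 0.76 and 0.78.

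Start-site sequences of some of these genes are given as a description, and whether they relate to the changes was not tested. The RefSeq promoter table (GRCm38.p6, 250 bases before to 50 bases after a start site) held 92 of the 118 members, 42 rising and 50 falling. A pair of AGTTCA in the same orientation with 5 bases between them, a motif searched after the data were seen, was present on either strand in 0.0296% of all promoters, and Cyp26a1 was the 1 member with it. Its copies begin 32 and 21 bases before the start site and lie on the reverse strand, so they read TGAACT below in capitals in the promoter at chr19:37697558-37697857 (plus strand). The plainer form AGGTCA was found in 9.52% of rising and 16% of falling promoters, against 18.1% of all 27025. A single AGTTCA, also added to the search later, was found in 4.76% of rising and 6% of falling promoters, against 15.7% of all. Col4a1 and Col4a2, which rose together, lie head to head and overlap at their 5-prime ends in the gene annotation. Their start sites in the promoter table are 21 bases apart, and their windows share 78 bases. The window of Col4a1 at chr8:11312777-11313076 (minus strand) is shown with the 1 GC box (GGGCGG, here on the reverse strand) in capitals, and that of Crabp1 at chr9:54764498-54764797 (plus strand) with its 5 GC boxes in capitals.
Cyp26a1: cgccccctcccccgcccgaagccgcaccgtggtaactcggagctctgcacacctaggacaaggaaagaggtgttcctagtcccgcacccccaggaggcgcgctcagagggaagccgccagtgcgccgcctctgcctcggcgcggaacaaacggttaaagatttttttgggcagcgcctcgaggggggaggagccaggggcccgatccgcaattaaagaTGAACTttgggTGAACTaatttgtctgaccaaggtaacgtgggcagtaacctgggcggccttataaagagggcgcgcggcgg
Col4a1: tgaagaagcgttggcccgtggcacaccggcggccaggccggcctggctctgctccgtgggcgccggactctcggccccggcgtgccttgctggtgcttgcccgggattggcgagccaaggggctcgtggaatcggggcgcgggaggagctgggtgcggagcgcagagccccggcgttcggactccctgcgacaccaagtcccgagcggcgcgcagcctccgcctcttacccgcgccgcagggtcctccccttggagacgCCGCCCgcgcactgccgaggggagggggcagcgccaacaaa
Crabp1: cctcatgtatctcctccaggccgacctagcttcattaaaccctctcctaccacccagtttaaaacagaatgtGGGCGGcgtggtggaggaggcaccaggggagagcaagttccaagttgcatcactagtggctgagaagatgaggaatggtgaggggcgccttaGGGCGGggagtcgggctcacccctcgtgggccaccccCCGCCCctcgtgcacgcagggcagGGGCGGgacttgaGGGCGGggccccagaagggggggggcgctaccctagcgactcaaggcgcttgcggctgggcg

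A GC box was present in 66.7% of rising and 66% of falling promoters, against 38.2% of all genes in the table, which include genes that are silent in these cells. AGATAA, the hexamer of GATA factors, was found in 1 of 42 rising (2.38%) and 11 of 50 falling promoters (22%), against 12.7% of all. A match is a description of letters in a window and not of a bound site.

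Pax6, a neural transcription factor, and Crabp1 were the 2 members among 11 ectoderm markers, of which 9 were above the minimum. Pax6 had 87 and 101 UMIs in bulk (1.71-fold, 1.27 to 2.31) and 39 and 241 in SCRB-seq (5.77-fold, 4.10 to 8.31). All 9 had the same sign in both assays, 7 upwards. Median log2 ratios of the 9 were 0.17 in bulk and 0.51 in SCRB-seq. Prtg, a receptor-like protein of the early neural plate, was not a member: its 280 and 214 UMIs in bulk and 849 and 1335 in SCRB-seq gave 1.13-fold (0.94 to 1.35) and 1.47-fold (1.35 to 1.60), an increase in both assays below the limit, while most of its rise in bulk came earlier, with 35.7, 113.8 and 128.5 CPM in the 36 h, 48 h and 60 h libraries. Mdk was similar, at 1.16-fold and 1.42-fold. Sox1 and Hoxb2 were lower, at 0.48 and 0.74 and at 0.92 and 0.84. Cdh2 (N-cadherin, 50 and 58 UMIs in bulk, 67 and 196 in SCRB-seq, 1.71-fold and 2.73-fold) was the 1 member of 6 adhesion genes above the minimum, and none of the 7 Hox genes above it was a member.

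**Figure D2:**
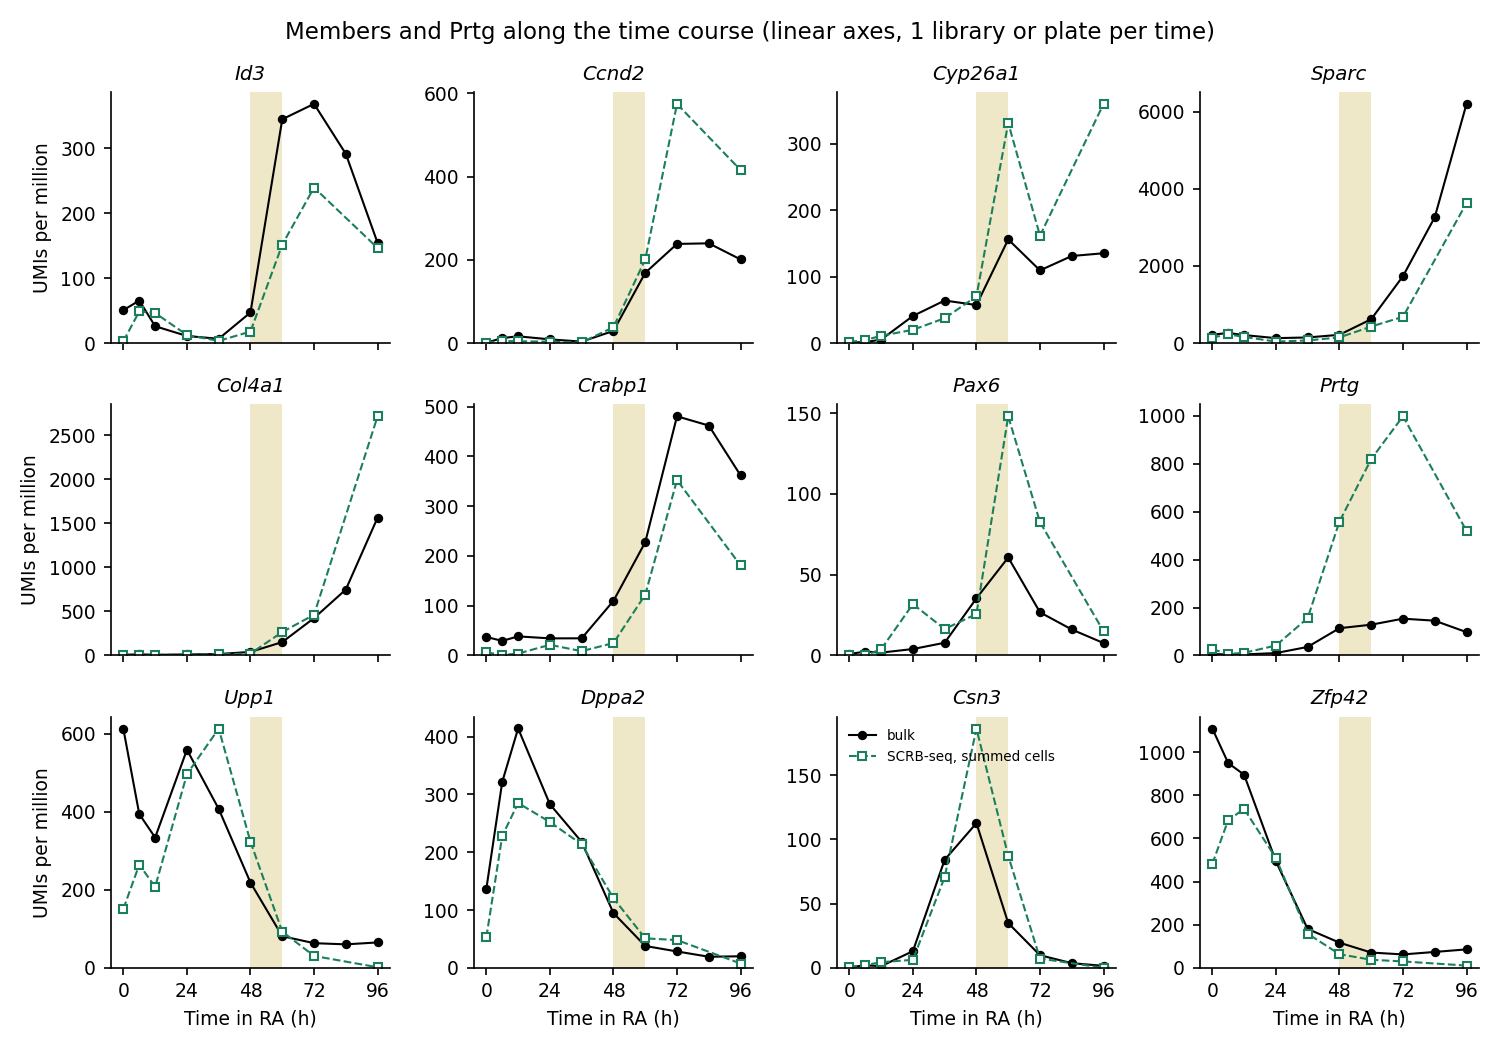
Bulk (filled circles) and summed SCRB-seq (open squares) levels of 11 members and Prtg against time in RA (h), in CPM on linear axes that differ between panels, with 48 h to 60 h shaded; each point is 1 library or plate, without error bars. Id3 and Ccnd2 step up within the shaded interval, Sparc and Col4a1 keep increasing to 96 h, Pax6 is highest at 60 h in both assays, and Csn3 is highest at 48 h.

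Of the falling members, ranked the same way, Pipox and 2410088K16Rik changed most. Pipox, a peroxisomal oxidase gene, had 50 and 8 UMIs in bulk and 60 and 7 in SCRB-seq, and was 4.23-fold lower in bulk (1.99 to 10.3) and 9.18-fold lower in SCRB-seq (4.19 to 23.8). 2410088K16Rik had 141 and 30 and then 71 and 12 UMIs (3.18-fold and 6.34-fold lower). Upp1 (chr11:9118008-9136170), uridine phosphorylase, had higher counts, 537 and 135 in bulk and 491 and 151 in SCRB-seq, and was 2.69-fold (2.23 to 3.28) and 3.48-fold (2.90 to 4.21) lower. Mkrn1, a ubiquitin ligase gene, went from 482 to 138 and from 260 to 102 UMIs (2.37-fold and 2.73-fold lower).

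Csn3, which encodes kappa-casein, went from 277 to 58 UMIs in bulk and from 283 to 142 in SCRB-seq (3.23-fold and 2.13-fold lower). It was a transient gene: bulk had 0.44 CPM in both 0 h libraries, 12.95 CPM after 24 h and 84.1 CPM after 36 h, then 112.6, 34.8 and 9.81 CPM in the 48 h, 60 h and 72 h libraries. Gng3, a G protein gamma subunit gene (270 and 91, 80 and 30 UMIs), B3gnt7, a glycosyltransferase gene (131 and 43, 88 and 46), Fgfbp1, an FGF-binding protein gene (115 and 32, 71 and 39), Gdf3, a TGF-beta family ligand gene (97 and 30, 71 and 32) and Fam53c (56 and 17, 60 and 32) were between 1.95-fold and 2.86-fold lower in either assay. Gdf3 matched another gene in its last 500 bases. The largest drop in 1 assay was that of Mylpf, a myosin light chain gene, with 92 and 6 UMIs in SCRB-seq (16.4-fold lower) but 157 and 56 in bulk (1.90-fold lower).

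Dppa2 and Dppa4, neighbours on chromosome 16 with 15982 bases between them, fell together. Dppa2 had 233 and 63 UMIs in bulk and 183 and 83 in SCRB-seq, 2.50-fold (1.89 to 3.36) and 2.36-fold (1.81 to 3.10) lower, and Dppa4 had 127 and 46 and then 65 and 40, 1.87-fold and 1.74-fold lower. In bulk Dppa2 had first increased, from 136.9 and 59.6 CPM at 0 h to 414 CPM at 12 h, and was at 94.7 CPM at 48 h. Of 12 pluripotency markers 5 were above the minimum, all 5 were lower at 60 h in both assays by sign of the ratio, and Sox2 and Zfp42 were members. Sox2, which was also on the list of neural transcription factors, had 110 and 35 UMIs in bulk and 300.0 and 174 in SCRB-seq (2.13-fold and 1.85-fold lower). Its bulk level was 24.2 CPM at 36 h, 44.7 at 48 h, 21.0 at 60 h and 32.1 at 72 h. From 36 h to 72 h it thus had no net fall, with ratios of 1.33 in bulk (0.87 to 2.04) and 1.04 in SCRB-seq (0.87 to 1.24). Zfp42 had 287 and 118 and then 96 and 61 (1.65-fold and 1.69-fold lower). Pou5f1 was at 0.70 in bulk and 0.18 in SCRB-seq, Dppa5a at 0.85 and 0.53, and Nanog at 0.70 and 0.998. Bulk ratios between 0.786 and 1, such as those of Dppa5a and Hoxb2, and the SCRB-seq ratio of Nanog change sign with Gapdh scaling. Alpl, the alkaline phosphatase by which pluripotent colonies are stained, fell from 137 to 53 and from 90 to 31 UMIs. The octamer ATTTGCAT, the site of Oct factors, was found in 4 of 50 falling (8%) and 2 of 42 rising promoters (4.76%), against 1.97% of all. These are few promoters, and whether the shares differ was not tested. The Zfp42 window at chr8:43306960-43307259 (minus strand) is shown with the octamer in capitals, 186 bases before the start site.
Zfp42: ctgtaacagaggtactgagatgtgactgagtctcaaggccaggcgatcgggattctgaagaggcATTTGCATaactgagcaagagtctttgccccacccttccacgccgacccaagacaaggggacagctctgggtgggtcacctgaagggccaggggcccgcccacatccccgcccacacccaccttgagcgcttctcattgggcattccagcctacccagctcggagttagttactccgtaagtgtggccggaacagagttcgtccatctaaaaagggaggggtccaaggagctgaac

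Of 15 glycolysis and hypoxia genes above the minimum Hk2 and Pkm were members, with 94 and 42 and then 161 and 109 UMIs for Hk2 (hexokinase 2, 1.52-fold and 1.58-fold lower) and 2393 and 1028 and then 1460 and 984 for Pkm (pyruvate kinase, 1.58-fold and 1.59-fold lower). Median log2 ratios of the list were -0.58 and -0.30, and 12 of 15 were lower in both assays. Slc2a1, the main glucose transporter gene, was at 0.31 in bulk and 0.75 in SCRB-seq. Gapdh scaling turned the order of the list's 2 medians, both still below 0, and left neither Hk2 nor Pkm past 1.5-fold in bulk. None of the 18 cholesterol synthesis, 69 oxidative phosphorylation and 12 collagen-folding genes above the minimum was a member, and of 83 cytosolic ribosomal protein genes Rpl39l fell and the others were not members.

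Part of the falling group could not be resolved into single genes. In their last 500 bases, where 3-prime-end reads fall, 14 of the 61 falling members with a sequence matched another listed gene over at least 100 bases at 95% identity or more, 11 of them another member: Gm13242, Zfp600, Rex2 and 2610305D13Rik, Gm13051 and Zfp534, Tmem254a, Tmem254b and Tmem254c, and Akr1b3 with Gm6644. Among rising members it was 4 of the 52 with a sequence, none of them with another member. The paralogs Raet1a, Raet1b and Raet1c had no sequence to compare, so whether they share reads with each other or with Raet1d was not tested. Gm13242 had 55 and 14 UMIs in bulk but 572 and 299 in SCRB-seq. Reads of such genes may be divided between copies, so their values are uncertain one by one. Without genes that share a 3-prime end, which was chosen after the data were seen, 51 rose and 49 fell.

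The share of cells with a UMI describes the same SCRB-seq wells that chose the members, and is no further support for them. After each cell was thinned to 2000 UMIs, which kept 274 cells at 48 h and 263 at 60 h, Col4a1 was detected in 4.01% of cells at 48 h (2.02 to 7.07, exact binomial interval) and 33.5% at 60 h (27.8 to 39.5). Without thinning the shares were 8.66% and 49.1%. Id3 was detected in 2.19% and 20.2%, Cyp26a1 in 10.6% and 37.6%, Ccnd2 in 5.84% and 24.0%, Pax6 in 4.74% and 22.4% and Crabp1 in 4.38% and 15.97%. In mESCs at 0 h these genes gave little background, with a share of 0.749% for Id3 and Col4a1, 0.375% for Ccnd2 and Cyp26a1 and 1.12% for Crabp1 in 267 cells. Sparc was the exception, with 23.6% at 0 h, 24.5% at 48 h and 43.0% at 60 h, and its UMIs per positive cell went from 1.28 to 2.04. For Col4a1 they went from 1.09 to 1.62 and for Pax6 from 1.69 to 1.37.

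In the other direction Upp1 was detected in 40.5% and 11.4% of cells, Mkrn1 in 23.7% and 9.51%, and Dppa2 in 16.8% and 8.75%. Sox2 was detected in 23.0% and 17.1%. The intervals at 48 h and 60 h overlapped for Dppa2 (12.6 to 21.8 and 5.62 to 12.8) and for Sox2 (18.1 to 28.4 and 12.8 to 22.2). Summed over the 11 XEN markers, cells held a mean of 1.04 UMIs at 48 h and 3.21 at 60 h, with 1 of 274 cells (0.365%) and 15 of 263 cells (5.70%) at 10 UMIs or more, and the share of cells with none went from 52.9% to 17.1%. The mean over the ectoderm list went from 3.91 to 5.71 and that over the pluripotency list from 5.09 to 3.40. A UMI of both Sparc and Crabp1 was found in 2 of 274 cells (0.730%) at 48 h, in 21 of 263 (7.98%) at 60 h and in 43 of 230 (18.7%) at 72 h. Each gene's own share also rose over these times, from 24.5% to 43.0% and 46.1% for Sparc and from 4.38% to 15.97% and 41.3% for Crabp1. Whether the 2 genes met in a cell more often than their separate shares imply was not tested.

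**Figure D3:**
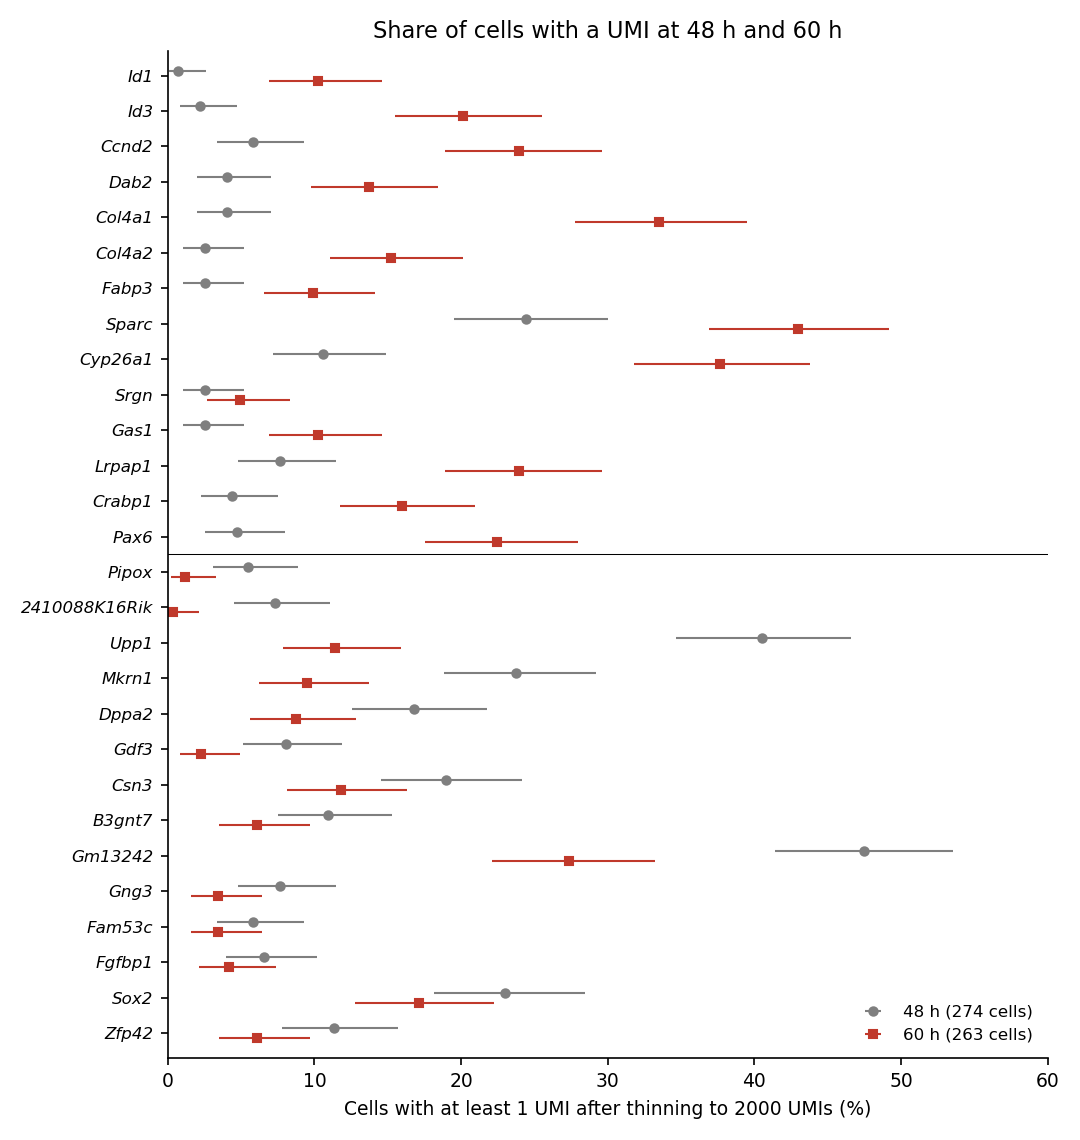
Percent of cells with at least 1 UMI of a gene after thinning to 2000 UMIs, at 48 h (grey circles, 274 cells) and 60 h (red squares, 263 cells), for the 12 rising members with the largest changes with Crabp1 and Pax6 (above the line) and the 12 falling ones with Sox2 and Zfp42 (below it); bars are exact 95% binomial intervals, which cover counting error only. Col4a1 goes from 4.01% to 33.5% and Upp1 from 40.5% to 11.4%, while the intervals of Srgn, Pipox, Dppa2, Csn3, B3gnt7, Gng3, Fam53c, Fgfbp1, Sox2 and Zfp42 overlap.

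Libraries that the rule did not use show how the members stood on either side of the interval. Between 36 h and 72 h, 42 of 55 rising members were at least 1.5-fold higher in both assays, against 16.3% of all genes compared, and 41 of 63 falling members were at least 1.5-fold lower in both, against 5.27%. In bulk alone 46 rising members were higher (27.1% of all genes) and 42 falling members were lower (9.36%), and in SCRB-seq alone 47 (27.1%) and 46 (14.7%). Ccnd2 had 3.63 CPM at 36 h and 238 at 72 h, Id3 had 6.66 and 368, and Dab2 had 6.05 and 293. Upp1 had 407 and 63.2 CPM, and Dppa2 had 217.9 and 28.3. Counter to this, 4 falling members, Gfra3, Clu, Fam53c and Ssbp3, were at least 1.5-fold higher at 72 h than at 36 h in both assays. Clu had 78.7 CPM at 36 h, 193.9 at 48 h, 100.3 at 60 h and 148.8 at 72 h.

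Relative to 48 h, the median rising member stood at 0.62 at 36 h, 1.83 at 60 h, 2.17 at 72 h and 2.37 at 96 h in bulk, and at 0.55, 2.48, 2.62 and 3.38 in SCRB-seq. The median falling member stood at 1.25, 0.55, 0.49 and 0.42 in bulk and at 1.19, 0.52, 0.37 and 0.18 in SCRB-seq. In bulk 25 of the 55 rising members had their highest level at 96 h and 14 at 60 h. Of the 63 falling members, 10 in bulk and 14 in SCRB-seq were highest at 48 h.

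Cells sorted at 96 h gave the members' levels in either lineage, independently of the rule. All 55 rising and 60 of the 63 falling members passed the low-count filter of edgeR, run over 8945 genes with 2 libraries a group. In XEN-like against ectoderm-like cells 19 rising members were higher (6.98% of all genes) and 13 lower (5.71%) at an adjusted p under 0.05, while falling members gave 6 and 6. The latter balance depended on the fit. It was 9 and 16 under the replicate block, which called 1324 and 1286 of 8167 genes. Without the low-count filter it was 7 and 11, with 838 and 829 of 16422 genes called. Rising members thus included genes higher in either lineage. With 1 library left in a group, the calls over all genes changed too, so medians are given instead of counts. The median log2 fold change of rising members was 0.28 in the main fit, 0.39 without ecto replicate 1 and -0.003 without XEN replicate 1. For falling members these medians were -0.13, 0.05 and -0.53. Ecto replicate 2 held more of the XEN genes than ecto replicate 1, with Sparc at 935 and 228 CPM and Dab2 at 242 and 30.6 CPM, and whether this moved the medians was not tested.

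Sparc stood at 5454 and 3414 CPM in the XEN-like libraries, above both ectoderm-like ones, with a log2 fold change of 2.99 (SE 0.55, adjusted p = 0.00552, edgeR). Cyp26a1 had 270.2 and 147.7 CPM in XEN-like and 32.2 and 21.3 CPM in ectoderm-like cells (3.05, SE 0.34, adjusted p = 0.000802, edgeR). Srgn, Lrpap1, Lama1 and Lamb1 were also higher in XEN-like cells, by 4.54, 3.61, 3.93 and 3.43 on the log2 scale. Col4a1 was higher by 2.75 (SE 0.62, adjusted p = 0.0141, edgeR), with 1208 and 236 CPM in XEN-like and 61.7 and 158.3 CPM in ectoderm-like cells, so that the call was lost without ecto replicate 1 (adjusted p = 0.163) and without XEN replicate 1 (0.166).

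On the ectoderm side, Crabp1 had 645 and 762 CPM in ectoderm-like and 13.7 and 14.6 CPM in XEN-like cells (log2 fold change of XEN against ecto -5.54, SE 0.44, adjusted p = 0.000201, edgeR). Id3 had 610 and 393 CPM against 17.8 and 13.7 (-4.87, SE 0.53, adjusted p = 0.000696, edgeR). Id1, Id2 and Ccnd2 were lower in XEN-like cells too, at -2.86, -2.50 and -2.90 on the log2 scale. Ptn, a growth factor gene, had 116.7 and 67.2 CPM in ectoderm-like and 0.51 and 0 CPM in XEN-like cells. For Pax6, with 46.7 and 21.3 CPM in ectoderm-like cells, both XEN-like libraries were at 0.

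Against mESCs, which both lineages share as the control, 34 rising members were higher in XEN-like cells (12.3% of all genes) and 29 in ectoderm-like cells (9.82%). Fabp3 was the 1 rising member lower in ectoderm-like cells, at -3.56 (SE 0.82, adjusted p = 0.0102, edgeR), a call lost without ecto replicate 1 (0.0717). Of the falling members 38 were lower (10.5% of all genes) and 2 higher in XEN-like cells, and 33 were lower (9.27%) and 3 higher in ectoderm-like cells. Falling members that separated the lineages included L1td1, higher in XEN-like cells by 3.52 (SE 0.41), Zfp42 by 2.02 (SE 0.34) and Upp1 by 1.92 (SE 0.33), and Sox2, lower by -4.36 (SE 0.51), with adjusted p values of 0.00086, 0.00343, 0.0042 and 0.00086 in edgeR. The call of Upp1 was lost without ecto replicate 1 (adjusted p = 0.0576). Zfp42 was nevertheless at 82.8 and 46.5 CPM in XEN-like cells against 1109 and 789 CPM in mESCs.

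**Figure D4:**
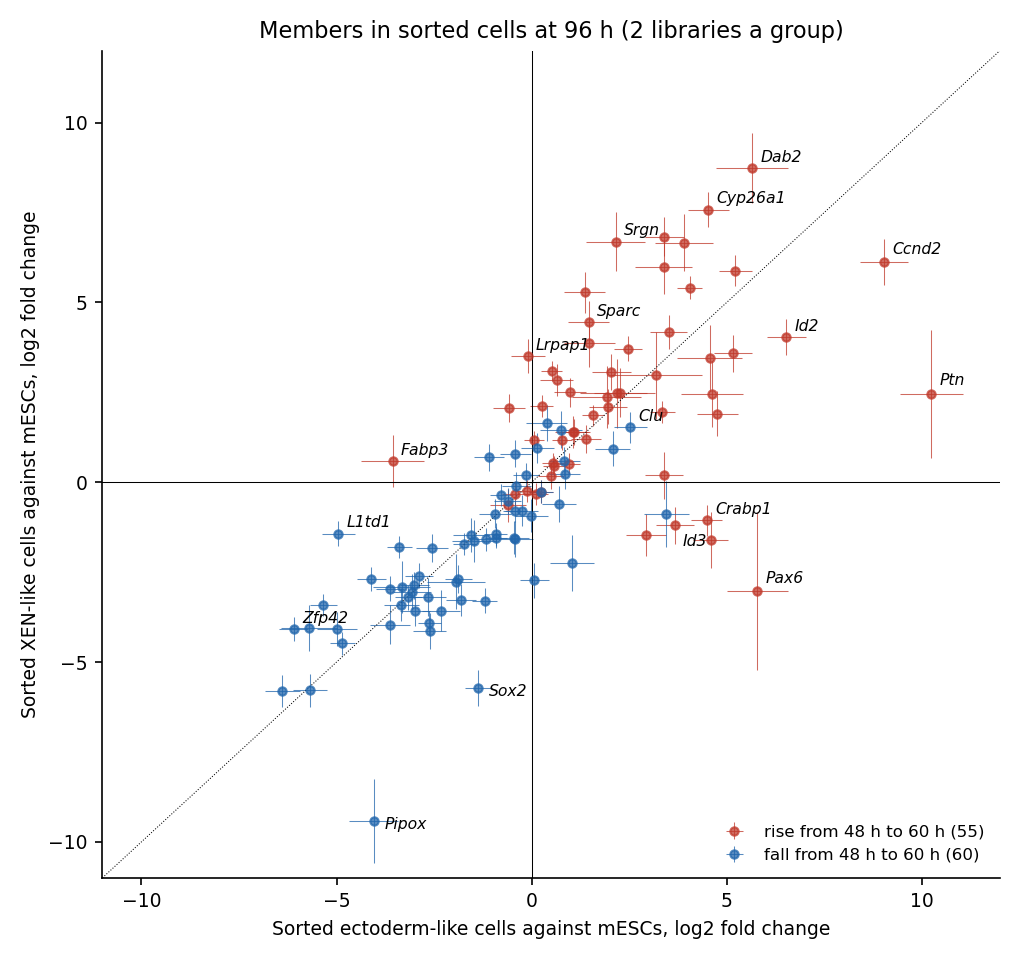
Log2 fold change against mESCs of sorted ectoderm-like cells (horizontal axis) and sorted XEN-like cells (vertical axis) at 96 h for the 55 rising (red) and 60 falling (blue) members with enough counts; bars are standard errors derived from the edgeR fold change and F statistic with 2 libraries a group and the dotted line marks equal change. Dab2, Cyp26a1, Srgn and Sparc lie above the line, and Ptn, Ccnd2, Id2, Crabp1 and Pax6 below it.

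Earlier sorts gave the same genes with 1 library each. Among PDGFRA-negative cells at 48 h, 30 rising members reached 50 UMIs in the lowest or the highest CD24 quartile, of which 10 were at least 1.5-fold higher in the highest (7.06% of genes) and 1 lower (8.41%). Of 47 falling members 27 were lower in the highest quartile and 5 higher. Gas1 was 4.96-fold (2.30 to 12.2) and Crabp1 2.30-fold (1.42 to 3.83) higher in the highest quartile, with 16.7 CPM in the lowest and 38.5 CPM in the highest for Crabp1, whereas Col4a1 had 13 and 9 UMIs. L1td1 went from 203 to 24.0 CPM and Upp1 from 870 to 232 CPM across the quartiles. The quartiles spanned the 101 CPM of L1td1 in the whole 48 h culture, but not the level of every member. All 4 were above the culture for Upp1 (218 CPM there) and Csn3 (282 to 516 against 112.6 CPM). All 4 were below it for Col4a1 (5.68 to 11.3 against 40.3 CPM) and Crabp1 (16.7 to 42.3 against 109.8 CPM). The same held for Pax6 (5.71 to 15.2 against 35.4 CPM) and Sparc (99.3 to 150.4 against 215.5 CPM). The sorted cells may thus differ from the time course culture at 48 h, and why was not tested. At 72 h, PDGFRA-positive cells had 20 of 55 rising members at least 1.5-fold higher than PDGFRA-negative cells (12.8%) and 19 lower (25.1%), and 38 of 56 falling members lower and 3 higher. Srgn was 33.0-fold (26.4 to 41.8), Lama1 13.9-fold and Dab2 13.2-fold higher there, and Crabp1 stood at 5.15 CPM against 97.9 to 290.9 CPM in the 3 terciles.

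The assays went apart at 24 genes (0.646% of those compared), which were 1.5-fold higher in one and 1.5-fold lower in the other. The furthest apart were Zranb3 (51 and 14 UMIs in bulk, 7 and 56 in SCRB-seq), Smarcal1 (59 and 18, 18 and 50), Dcaf7 (50 and 17, 44 and 91), Chek1 (55 and 69, 58 and 34) and Esco1 (75 and 28, 45 and 94). The first 2 encode related DNA translocases. Among markers of other cell types, none of 6 for mesoderm was above the minimum, with sums of 8.13 and 5.40 CPM in bulk and of 0.0526 and 0.276 UMIs per 10000 in SCRB-seq. None of 7 for trophectoderm was, with 30.9 and 54.0 CPM and with 0.243 and 1.04 UMIs per 10000. Both sums were thus higher at 60 h in SCRB-seq, while that for mesoderm was lower in bulk. The 2 post-implantation epiblast genes above it, Dnmt3a (0.66 and 0.68) and Dnmt3b (0.72 and 0.63), were lower in both assays. Dnmt3a passed 1.5-fold in bulk alone and Dnmt3b in SCRB-seq alone, so neither was a member.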

How the data were processed

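Members and gene lists were chosen with earlier results of these data known. The authors mapped 3-prime-end reads by BWA 0.7.4 against RefSeq transcripts (mm10 per the labels), counted each UMI once per gene, and deposited UMI counts per bulk library and per SCRB-seq well without normalization. The authors' SMART-seq2 RPKM values have no 60 h sample and were not used.

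Here rows damaged by text (Rn45s, Gkn2) and 4 rows with repeated names were left out, and 23 bulk gene names altered to dates had no SCRB-seq partner. Counts were divided by library totals (CPM in bulk, UMIs per 10000 in SCRB-seq) and summed over wells with more than 2000 UMIs. Cells were sorted singly, and no doublet caller was run. The limits were 50 UMIs and 1.5-fold. Ratios carry exact conditional 95% intervals, shares Clopper-Pearson intervals, and neither covers differences between cultures. Whether both assays used the same culture is not given in the sources used here.

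For sorted cells and mESCs, edgeR 4.0.16 was run under R 4.3.3 (TMM, default filter, quasi-likelihood, all 6 libraries, Benjamini-Hochberg adjustment), with DESeq2 1.42.0 as an alternative. The quasi-likelihood test gives no standard error, so each SE is the absolute log2 fold change divided by the square root of its F statistic. The study's methods call the libraries of these groups biological replicates. Both steps were run on simulated counts. Those for the ratios held counting error only, so they cannot show how the spread between libraries affects the members. Named genes are Prtg, Crabp1 and Sparc, the 12 members per direction with the largest smaller-of-both log2 ratio, list members with the largest ratios, and the 5 most divergent genes between assays. Any other gene was picked with its values in view. Members were looked up in the annotation tables, 108 by symbol and 7 by synonym, while 3 had no match. Promoters came from RefSeq GRCm38.p6 and gene coordinates from the RefSeq gene annotation. The 3-prime ends of GENCODE M21 transcripts were compared with BLAST 2.17.0. Other steps ran in Python 3.11.15 (pandas 2.3.3, scipy 1.17.1, numpy 2.4.6, matplotlib 3.10.9).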

Additional observations from a re-analysis of the deposited data

How the results depend on the processing

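For Prtg, Sparc and the 12 largest changes each way, no ratio was labelled as reversed under the alternatives run for them. These 12 were chosen for their size, and a ratio whose interval included 1, as for Prtg in bulk, could not receive that label. The balance of the counts did change side. The main setting gave 55 rising and 63 falling members, while Gapdh scaling, a fold of 2 and minimums of 20 or 100 UMIs gave more rising ones. Gapdh scaling moved the median log2 ratio of all genes to 0.35 in bulk and 0.11 in SCRB-seq, and TMM to -0.03 and -0.09. Counts of rising and falling members depended on the limits. A fold of 2 gave 20 and 11 genes, a minimum of 20 UMIs 167 and 152, of 100 UMIs 26 and 22, and 1 UMI in each of the 4 libraries 564 and 500. Thinned cells gave 25 and 39, where 1863 genes passed the minimum, and Gapdh scaling gave 203 and 27. In XEN against ecto, leaving out 1 library at a time gave 10 to 19 rising members higher and 11 to 13 lower, and 2 to 6 falling members higher and 3 to 9 lower. Without the low-count filter 11 falling members were lower there, as were 829 of all 16422 genes. With the replicate block on the 4 sorted libraries 16 were. No source used here says that sorted libraries with the same number belong together, and 2 pairs are too few to decide it. Their deviations correlated at 0.326 over 8945 genes, and the block moved all calls from 694 higher and 565 lower to 1324 and 1286. The 4 main counts against mESCs (rising higher, falling lower) stayed within 1.5 times of their values under every alternative run. With 1 library or plate per time, the depth limits which genes could be compared, and the spread between cultures at 48 h and 60 h is unknown.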
